A study of Homo sapiens with 29 samples.

Results

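The genes described here are 50 genes of the autophagy machinery and of the lysosome, followed in the human pancreatic β-cell line EndoC-βH1. They came from a list of 52 symbols. A symbol was kept where the row of its Ensembl gene had a mean of at least 1 CPM, the usual count scaled to library size, over the 29 libraries. Of the 66025 entries in the expression table, 16660 had that mean, and 50 of the 52 listed genes were among them: 27 lysosome genes and 23 autophagy genes. The cathepsin gene CTSZ, with a mean of 0.274 CPM, and the ATG8-family gene GABARAPL1, with 0.340 CPM, stayed below it. The lowest genes that were kept were WIPI1 at 4.93 CPM, TFEB at 7.16 CPM and NEU1 at 8.90 CPM.

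The study grew EndoC-βH1 cells for 10 days in medium that HEK293 cells, a human embryonic kidney line, had conditioned for 3 h. The HEK293 cells carried, stably overexpressed, one of 3 constructs: mutant CEL (here MUT, 10 libraries of β-cells), CEL of wild-type sequence (WT, 10 libraries) or the vector without insert (EV, 9 libraries). Media were filtered and their protein levels normalised. CEL is carboxyl ester lipase, a digestive enzyme of pancreatic acinar cells, whose mutations cause the diabetes form MODY8. The labels do not name the mutation or say whether each HEK293 line was 1 clone. Every group, EV included, thus received HEK293-conditioned medium, and the CEL protein came from a kidney line and not from acinar cells. The labels name 3 batches. Each medium had 3 libraries in every batch, apart from WT and MUT in batch 1, which had 4 each. The labels do not say whether libraries of 1 group and batch came from separate cultures, so a p-value here speaks only of library-to-library spread, and that spread may be technical.

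In autophagy, a cell encloses part of its own content in a double membrane, the autophagosome, which then fuses with the lysosome. The ULK1 kinase complex starts the process, a lipid kinase complex around Beclin 1 marks the membrane, ATG9A and ATG2A supply lipid, and a conjugation system attaches ATG8 proteins such as LC3 to the growing membrane, where receptors such as p62 (SQSTM1) bind cargo. Lysosomal hydrolases then digest the content in a lumen that the vacuolar proton pump keeps acidic, and the transcription factors TFEB and TFE3 switch on many genes of both groups. In β-cells the same route removes damaged organelles and spare secretory granules.

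TFEB and TFE3 are known to bind an E-box, CACGTG, in lysosomal gene promoters. The promoters of 4 lysosome genes are shown here because their transcripts moved in different ways in batch 2 (below): MCOLN1, a lysosomal calcium channel, GAA, the acid α-glucosidase that breaks down glycogen, LAMP1, an abundant lysosomal membrane protein, and CTSD, the protease cathepsin D. Each runs from 110 bases before the annotated gene start to 10 bases after it, 5′ to 3′ on the gene's strand, from RefSeq (GRCh38.p14), with every CACGTG in capitals. MCOLN1 lies on the plus strand at chr19:7522514-7522633, GAA on the plus strand at chr17:80101471-80101590, LAMP1 on the plus strand at chr13:113297129-113297248 and CTSD on the minus strand at chr11:1763918-1764037.
MCOLN1: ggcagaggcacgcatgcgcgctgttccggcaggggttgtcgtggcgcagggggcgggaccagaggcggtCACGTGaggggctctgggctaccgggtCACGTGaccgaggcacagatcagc
GAA: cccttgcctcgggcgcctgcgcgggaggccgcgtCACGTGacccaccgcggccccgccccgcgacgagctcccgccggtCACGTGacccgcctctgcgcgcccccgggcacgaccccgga
LAMP1: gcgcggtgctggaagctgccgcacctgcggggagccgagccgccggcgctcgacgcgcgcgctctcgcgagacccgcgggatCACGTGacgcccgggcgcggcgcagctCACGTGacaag
CTSD: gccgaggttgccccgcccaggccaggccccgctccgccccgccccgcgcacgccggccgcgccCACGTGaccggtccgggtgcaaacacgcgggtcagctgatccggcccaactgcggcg

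CACGTG is its own reverse complement, so a match counts for both strands. Over the whole RefSeq windows, from 250 bases before to 50 after the start, 39 of the 50 genes were matched. CACGTG occurred in 8 of 19 lysosome promoters (ATP6V0D1, CLN3, CTSA, CTSD, GAA, LAMP1, MCOLN1 and NEU1) and in 2 of 20 autophagy promoters (ATG3 and ATG14), against 7.43% of the 27305 promoters in the table. The longer palindrome TCACGTGA, which contains CACGTG, occurred in 6 of the 19 lysosome promoters and in ATG3 alone among the 20 autophagy promoters, against 1.04% of all promoters. With GT before and AC after it, CACGTG occurred in 2 lysosome promoters, those of GAA and MCOLN1, and in 0.381% of all promoters. A match describes these letters only.

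The libraries held between 26.2 and 40.2 M estimated counts, and the 50 genes took 0.681% of them. All 11 β-cell markers listed for the check were at or above 1 CPM, with INS between 8464 and 19210 CPM. The macrophage genes PTPRC, LYZ, TYROBP and C1QA, which would mark a cell type rich in lysosomes, were below 0.1 CPM. Of 8 macrophage markers 2, CD68 and CD14, reached 1 CPM, and the summed level of the 8 ran from 34.6 to 136 CPM in EV, 30.6 to 64.3 CPM in WT and 37.3 to 56.5 CPM in MUT. One of 7 acinar, 1 of 6 fibroblast and 1 of 7 HEK293-expressed genes reached 1 CPM (CPA1, COL1A1 and LIN28B). Transcripts of the cells' own CEL gene stayed between 1.24 and 13.4 CPM. Mitochondrially encoded genes took 5.77 to 8.28% of the counts in batch 1 and 3.6 to 5.41% in batches 2 and 3. EV library 2 of batch 1, which had the highest share, has a number that does not follow on from those of the libraries beside it. Its batch was taken from its label, and the count without it is given below.

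Per kilobase of annotated exon, lysosome genes filled the top of the order of levels. The length used joined the exons of all transcripts of a gene in the basic annotation. It can exceed the length of a single transcript and then lowers the value of that gene. Prosaposin (PSAP), the precursor of the saposins, which activate sphingolipid breakdown, led with a mean level of 358 ± 58.0 CPM per kb (SD over all 29 libraries), followed by LAMP1 at 201 ± 27.0, the carboxypeptidase CTSA at 170, progranulin (GRN) at 119 and CTSD at 118 CPM per kb. The highest autophagy gene was GABARAPL2, an ATG8 protein, at 101 CPM per kb. GABARAP stood at 84.6, SQSTM1 at 45.8, MAP1LC3A at 39.6 and MAP1LC3B at 29.4 CPM per kb. The initiation kinase ULK1 stood at 28.1 and its scaffold RB1CC1 at 7.62 CPM per kb. At the bottom came the PI3P-binding protein WIPI1 at 2.62 and TFEB at 1.61 CPM per kb, while TFE3, the related factor, stood at 33.1 CPM per kb. NEU1, which encodes a sialidase and lies in the MHC region, varied between 4.18 and 19.5 CPM, and 76.7% of its log2 variance lay between libraries of the same group and batch, so its level is uncertain.

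Differences between batches were wider than those between media averaged over the batches. Batch took a median of 70.7% of a gene's log2 variance over the 29 libraries, from 7.32 to 94.3%, and medium a median of 2.79%, from 0.0185 to 29.8%. The medium share rests on means over all batches, so a change with medium that differs between batches is not fully counted in it. The summed level of the 27 lysosome genes was 4421 ± 194 CPM in batch 1 (SD, n = 11), 5255 ± 326 CPM in batch 2 (n = 9) and 5414 ± 203 CPM in batch 3 (n = 9). The summed autophagy level was 1773 ± 38.1, 1948 ± 78.0 and 1791 ± 36.5 CPM in the same order. Every library of batches 2 and 3 was above every library of batch 1 in the summed lysosome level, while the autophagy sums of batches 1 and 3 overlapped.

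**Figure D1:**
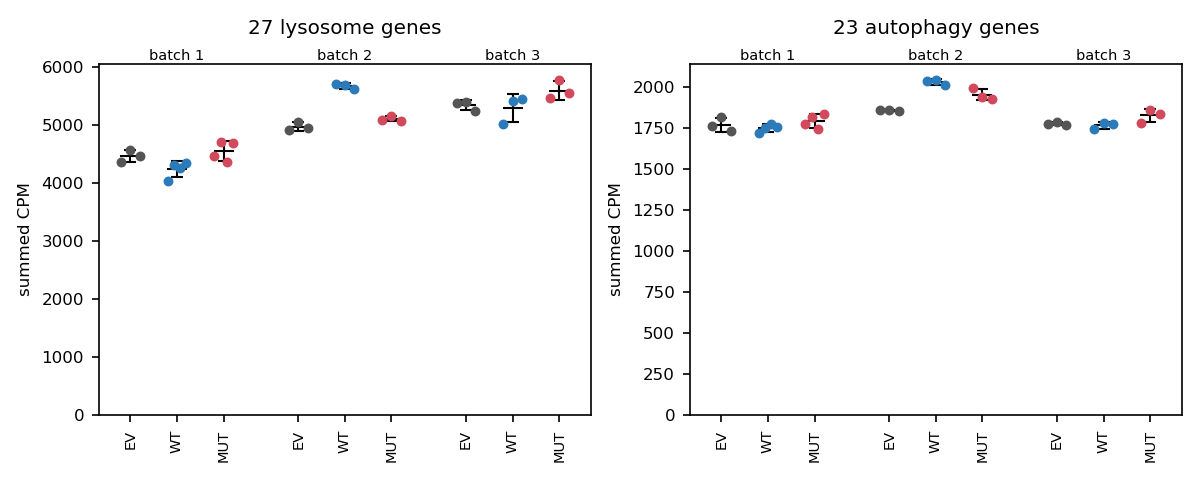
Summed CPM of the 27 lysosome genes (left) and the 23 autophagy genes (right) in each library, by batch and medium (EV, WT, MUT). Points are libraries, and bars give the mean and SD of a group; in batch 2 the WT libraries sit highest in both sums, between 5624 and 5706 CPM and between 2014 and 2042 CPM.

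Mutant CEL medium was compared with empty-vector medium over all batches to ask what the mutant protein's medium does to β-cells. In a model with batch and medium, 5 of the 50 genes rose in MUT and 0 fell (edgeR's quasi-likelihood test, Benjamini-Hochberg adjusted over the 21259 genes tested, threshold 0.05). Over all genes tested, 5.20% passed, 2.95% upward and 2.25% downward. The 5 were 4 autophagy genes of 23, namely MAP1LC3B, RB1CC1, WIPI2 and ATG13, and 1 lysosome gene of 27, PRCP. All 5 changes were small, between 0.11 and 0.22 on the log2 scale. The median log2 change was 0.049 over the autophagy genes and 0.037 over the lysosome genes, against 0.000 over all genes, and 37 of the 50 genes lay above 0.

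PRCP encodes a lysosomal carboxypeptidase that removes the residue after a C-terminal proline. In batch 1 it stood at 45.8, 49.0 and 43.2 CPM in EV, at 45.0, 44.1, 44.8 and 48.3 CPM in WT and at 51.4, 53.5, 51.1 and 50.4 CPM in MUT. Batch 2 gave 60.9, 54.1 and 58.3 CPM in EV, 61.4, 65.5 and 58.8 CPM in WT and 73.4, 68.1 and 69.1 CPM in MUT. In batch 3 the values were 47.9, 52.6 and 53.7 CPM in EV, 49.2, 49.5 and 51.0 CPM in WT and 54.6, 54.9 and 52.6 CPM in MUT. All MUT libraries lay above all WT libraries of their own batch in each of the 3 batches, and above all EV libraries in batches 1 and 2, with overlap in batch 3. The log2 change was 0.17 ± 0.035 (SE) against EV and 0.16 ± 0.034 against WT (edgeR adjusted p = 0.0196 for both). PRCP was the 1 gene of the 50 that passed the test of MUT against WT, in which 0.884% of all genes passed, 0.522% upward and 0.362% downward. The change of PRCP between MUT and EV was 0.15 in batch 1, 0.28 in batch 2 and 0.07 in batch 3 alone.

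MAP1LC3B encodes LC3B, the ATG8 protein most used to follow autophagosomes. Its EV libraries ran from 70.2 to 93.3 CPM with a median of 87.5, its WT libraries from 75.4 to 107.7 with a median of 87.6, and its MUT libraries from 79.1 to 107.5 with a median of 92.3 CPM. Within batches, MUT lay above EV without overlap in batch 2 (107, 96.1 and 101 against 93.1, 87.2 and 87.5 CPM), while the highest EV library of batch 1, at 79.4 CPM, was above the lowest MUT library, at 79.1 CPM. The log2 change was 0.14 ± 0.035 (edgeR adjusted p = 0.0295). By batch alone it was 0.16, 0.19 and 0.05. Its near copy MAP1LC3B2 was listed at 0.211 CPM, and reads shared between them cannot be told apart.

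RB1CC1 encodes FIP200, the large scaffold of the ULK1 complex. In batch 1 its level was 46.9, 49.2 and 49.3 CPM in EV and 57.4, 60.1, 59.3 and 54.8 CPM in MUT, and in batch 2 it was 43.7, 42.3 and 43.0 CPM in EV, 51.4, 50.6 and 48.0 in WT and 62.3, 56.1 and 60.3 CPM in MUT. Batch 3 went the other way in its means, with 43.2, 45.6 and 50.6 CPM in EV and 45.6, 43.9 and 41.9 CPM in MUT, and these overlapped. The pooled log2 change of 0.22 ± 0.057 (edgeR adjusted p = 0.0308) joined changes of 0.24, 0.47 and -0.09 in batches 1, 2 and 3. The test of whether the 3 batches differed in this change gave an edgeR adjusted p of 5.93e-05.

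WIPI2 binds the lipid PI3P on the forming membrane and recruits the conjugation enzymes. It ran from 39.0 to 45.7 CPM in EV and from 40.5 to 51.7 CPM in MUT, and its log2 change was 0.12 ± 0.033 (edgeR adjusted p = 0.0394), a call lost in 24 of the alternatives run. Batches 1, 2 and 3 alone gave 0.06, 0.25 and 0.02, and the change differed between them (edgeR adjusted p = 0.0192). ATG13, the adaptor of the ULK1 complex, ran from 84.3 to 98.7 CPM in EV and from 88.4 to 105.3 CPM in MUT, with a log2 change of 0.11 ± 0.034 (edgeR adjusted p = 0.0483), a call lost in 32 of the alternatives run, against 13 in which it held. Its changes of 0.06, 0.16 and 0.11 in batches 1, 2 and 3 did not pass a test of differing between batches (adjusted p = 0.622).

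**Figure D2:**
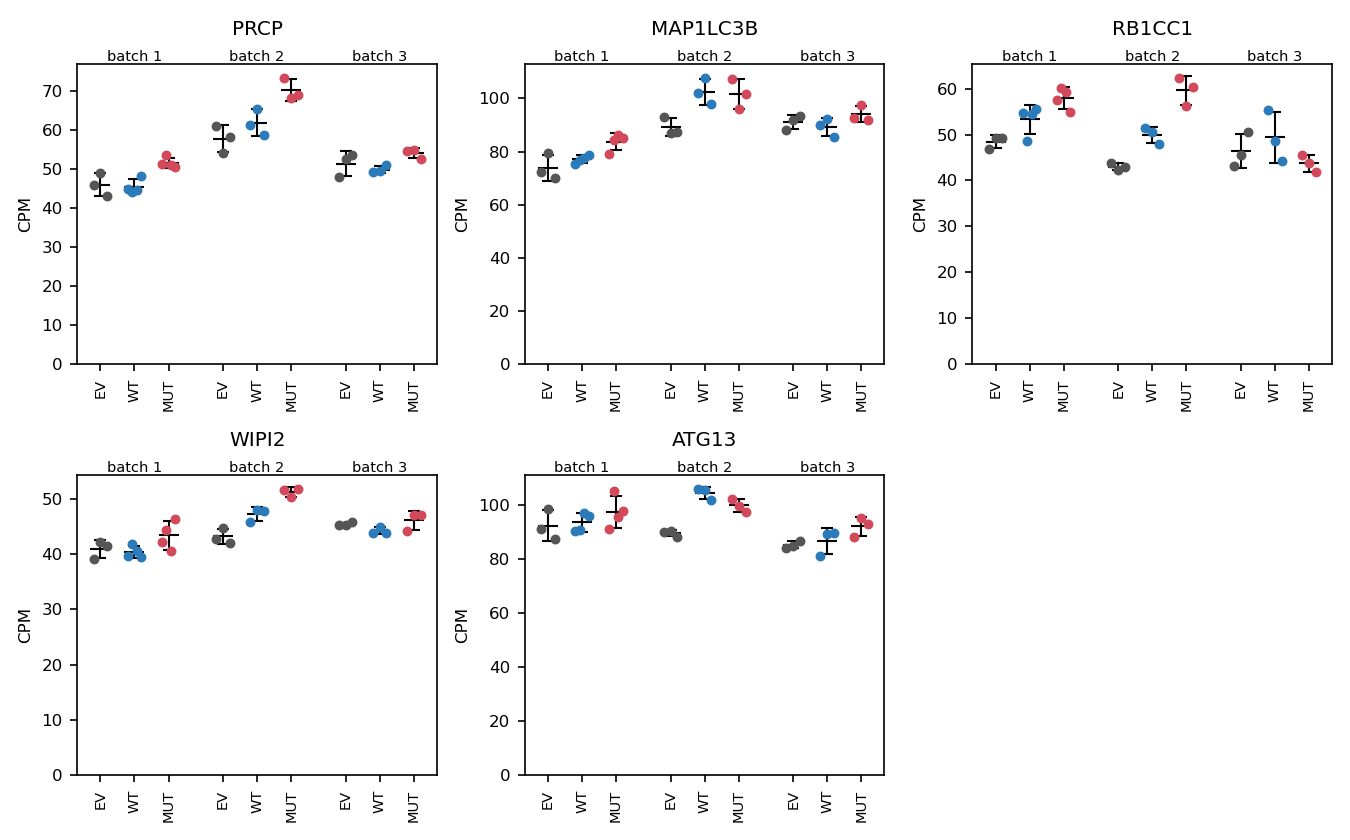
CPM by library, batch and medium for the 5 genes that passed the pooled test of MUT against EV. Points are libraries and bars the mean and SD; the MUT points lie above the EV points of batch 2 in all 5 panels, and in batch 3 they overlap for PRCP, MAP1LC3B, RB1CC1 and WIPI2.

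The 5 calls were lost in several alternatives. Without batch 2, and so with fewer libraries, 0 of the 50 genes passed, as did 0 of all genes (edgeR). The 5 changes were then 0.12 for PRCP, 0.11 for MAP1LC3B, 0.10 for RB1CC1, 0.05 for WIPI2 and 0.09 for ATG13, with adjusted p from 0.395 to 0.688. The call was also lost for all 5 with limma voom and quality weights, or with voom at a correlation of 0.431 estimated between libraries of 1 batch and medium (PRCP, adjusted p = 0.0924 and 0.318), and 1 gene, PRCP, passed with no low-count filter. In edgeR 0 passed when EV library 2, EV library 3 or MUT library 1 of batch 2 was left out. Without EV library 1, MUT library 2 or MUT library 3 of batch 2, or MUT library 2 of batch 1, 1 gene passed, and 3 passed without EV library 2 of batch 1 or without any 1 of 6 WT libraries (those of batch 1, and libraries 2 and 3 of batch 2). Without batch 3, 12 passed. Shares of all genes are not given for the fits without single libraries or without batch 3, so these counts do not set the 50 genes apart. When libraries sharing batch and medium were added up to single profiles, 0 of the 50 genes passed. So did 0 of all 25381 genes tested in that fit, so this loss is not particular to the 50 genes. All 5 calls were also lost with a replicate block, a term for same-numbered libraries of a batch in place of the batch term. The call of PRCP in MUT against WT was lost there too. PRCP in MUT against WT lost its call without MUT library 1 of batch 2 (adjusted p = 0.0518) and without batch 1 (adjusted p = 0.170).

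Of the genes followed in every comparison, TFEB had a log2 change of 0.00 ± 0.082 between MUT and EV (edgeR adjusted p = 0.986), TFE3 0.07 ± 0.038 (0.307), SQSTM1 -0.02 ± 0.042 (0.849), LAMP1 0.10 ± 0.042 (0.134) and CTSD 0.07 ± 0.063 (0.497). The largest pooled changes that missed the threshold were those of MCOLN1, at 0.21 ± 0.078 (adjusted p = 0.0941), WIPI1, at 0.19 ± 0.111 (0.292), and NAGLU, the lysosomal α-N-acetylglucosaminidase, at -0.19 ± 0.065 (0.0744). None of the 7 glycosidases, 4 proton pump subunits, 4 members of the PI3-kinase complex, 5 conjugation enzymes or 3 cargo receptors passed.

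Wild-type CEL medium against empty-vector medium moved 0 of the 50 genes past the threshold over all batches (edgeR), and 0.315% of all genes. At an unadjusted p under 0.05 there were 7, a count without the share of all genes beside it. DESeq2 and limma voom with quality weights, run in place of edgeR, also called 0. The smallest edgeR adjusted p was 0.251, for RB1CC1 at a log2 change of 0.14 ± 0.057. WIPI1 had the largest difference at 0.28 ± 0.111 (edgeR adjusted p = 0.255), and GLA, the α-galactosidase, and NAGLU stood at -0.10 ± 0.041 and -0.10 ± 0.064. Between MUT and WT, GLA stood next after PRCP among the lysosome genes, at 0.15 ± 0.040 (edgeR adjusted p = 0.0665). WIPI2 at 0.09 ± 0.032 (0.143) and ATG9A, the lipid scramblase carried on vesicles, at 0.09 ± 0.051 (0.422) led the autophagy genes there.

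The changes differed from batch to batch for a large share of the genes. In the model with a medium-by-batch term, 26 of the 50 genes differed between batches in their change from EV to MUT, 27 in that from WT to MUT and 20 in that from EV to WT, against 44.0%, 28.4% and 24.1% of all genes. The direction was the same in all 3 batches for 14 of 50 genes (28.0%) in MUT against EV, where 17.1% of all genes kept 1 direction, for 8 (16.0%) in MUT against WT and for 9 (18.0%) in WT against EV, where the shares over all genes were 19.3% and 21.8%. The comparisons share libraries, so their counts are not independent of each other.

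**Figure D3:**
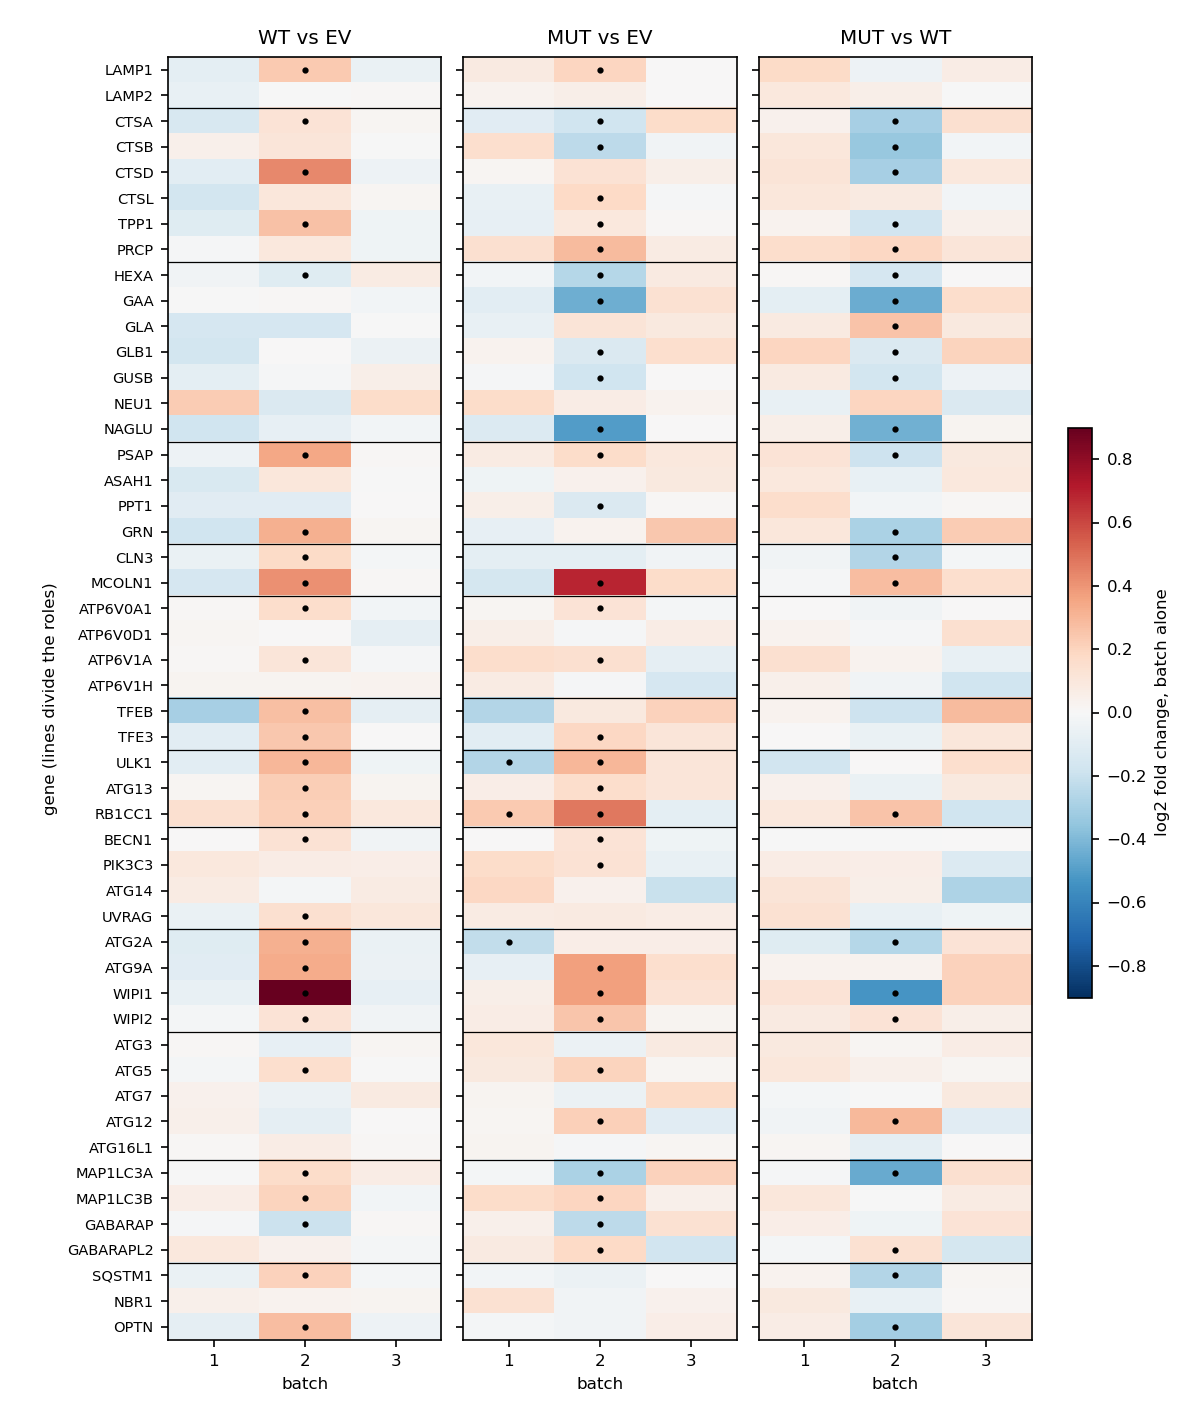
Log2 fold change of each of the 50 genes in batches 1, 2 and 3 fitted alone, for WT against EV, MUT against EV and MUT against WT (colour scale from -0.9 to 0.9). A dot marks an edgeR adjusted p under 0.05; apart from RB1CC1, ULK1 and ATG2A in batch 1, the dots lie in the batch 2 columns.

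Batch 2 alone showed the widest movement. There, 28 of 50 genes changed between WT and EV, 26 upward and 2 downward, where 38.9% of all genes passed, 19.6% upward. Between MUT and EV 31 changed, 21 upward and 10 downward, where 47.8% of all genes passed and 24.1% were upward. Between MUT and WT 24 changed, 7 upward and 17 downward, where 33.1% of all genes passed, 16.8% upward. With offsets for GC content and length, the last split became 11 upward and 17 downward, where 34.7% of all genes passed. The median GC content was 52.8% in the lysosome genes, 48.5% in the autophagy genes and 48.4% over all genes tested.

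In batch 2, 12 of 27 lysosome genes rose in WT medium against EV, and 1, HEXA, fell, where 19.6% of all genes rose and 19.3% fell. Those that rose were LAMP1, the proteases CTSA, CTSD and TPP1, PSAP and GRN, MCOLN1 and CLN3, the pump subunits ATP6V0A1 and ATP6V1A, and TFEB and TFE3. LAMP1 stood at 541, 520 and 536 CPM in EV, 631, 642 and 610 CPM in WT and 616, 601 and 602 CPM in MUT, so that both CEL media lay above EV without overlap. Its log2 change was 0.24 ± 0.035 in WT and 0.19 ± 0.035 in MUT (edgeR, batch 2 alone, adjusted p = 4.38e-05 and 0.000225). CTSD rose more in WT, from 231, 271 and 244 CPM in EV to 339, 333 and 335 CPM in WT, and stood at 268, 289 and 258 CPM in MUT. Its change was 0.43 ± 0.053 in WT (adjusted p = 1.16e-05) and 0.13 ± 0.054 in MUT, which missed the threshold (adjusted p = 0.0566) but passed with offsets for GC content and length, at 0.25. PSAP ran from 1000 to 1044 CPM in EV, from 1295 to 1312 CPM in WT and from 1121 to 1156 CPM in MUT, with a change of 0.35 ± 0.034 in WT (adjusted p = 3.35e-07). In batches 1 and 3 the changes of these 3 genes in WT against EV lay between -0.10 and 0.01, none past the threshold, and the test of differing between batches gave adjusted p of 0.000876 for LAMP1, 0.000192 for CTSD and 9.10e-06 for PSAP.

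TFEB and TFE3 rose as well in WT medium of batch 2. TFEB stood at 6.85, 7.42 and 7.38 CPM in EV, 8.86, 8.41 and 8.99 CPM in WT and 7.37, 7.74 and 7.84 CPM in MUT, with a change in WT of 0.27 ± 0.079 (edgeR adjusted p = 0.0102). TFE3 stood at 106, 112 and 105 CPM in EV, 129, 125 and 130 CPM in WT and 119, 125 and 123 CPM in MUT. Its change was 0.25 ± 0.040 in WT (adjusted p = 9.95e-05) and 0.19 ± 0.040 in MUT (adjusted p = 0.000818). In batch 1 neither factor passed the test, with TFEB at -0.30 in WT and -0.27 in MUT against EV.

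In mutant medium of batch 2, MCOLN1 rose and 5 of the 7 glycosidases fell. MCOLN1 in batch 2 stood at 26.7, 28.1 and 24.8 CPM in EV, 34.5, 36.3 and 35.0 CPM in WT and 40.5, 42.6 and 44.3 CPM in MUT. The 3 groups did not overlap, and the change from EV was 0.41 ± 0.056 in WT and 0.685 ± 0.055 in MUT (edgeR adjusted p = 1.63e-05 and 2.33e-08). NAGLU, which takes part in the breakdown of heparan sulfate, stood at 54.0, 60.7 and 55.5 CPM in EV, 53.7, 51.6 and 56.5 CPM in WT and 38.9, 41.6 and 39.0 CPM in MUT. Its change was -0.505 ± 0.053 in MUT (adjusted p = 5.37e-07) and -0.075 ± 0.052 in WT (adjusted p = 0.280), where offsets for GC content and length gave -0.157 and a call.

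GAA followed NAGLU, with 184, 215 and 195 CPM in EV, 203, 196 and 201 CPM in WT and 139, 158 and 140 CPM in MUT, a change of -0.44 ± 0.059 in MUT (edgeR adjusted p = 2.55e-05). The glycosidases that fell in MUT against EV in batch 2 were NAGLU, GAA, HEXA, GUSB and GLB1, and 0 rose, where 23.8% of all genes fell. GLA (0.11) and NEU1 (0.06) did not pass. HEXA, the α subunit of β-hexosaminidase, stood at 148, 147 and 148 CPM in EV and 122, 124 and 123 CPM in MUT. GUSB, the β-glucuronidase, and GLB1, the β-galactosidase, changed by -0.18 ± 0.036 and -0.13 ± 0.039, and GLB1 missed the threshold with offsets for GC content and length (adjusted p = 0.0739). In batch 3 neither MCOLN1 (0.16) nor any of the 7 glycosidases passed in MUT against EV, GAA standing at 0.14 and GLB1 at 0.148, and in batch 1 MCOLN1 stood at -0.16, GAA at -0.10 and NAGLU at -0.13 without passing. The change of NAGLU differed between batches (adjusted p = 0.000817).

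Against WT medium, mutant medium of batch 2 gave lower levels of 4 of the 6 proteases, CTSB, CTSA, CTSD and TPP1, and a higher level of PRCP, while CTSL did not pass. In that fit 16.4% of all genes were lower and 16.8% higher. CTSA, which also protects NEU1 and GLB1 in a complex, stood at 374, 391 and 375 CPM in EV, 417, 417 and 411 CPM in WT and 324, 342 and 338 CPM in MUT. Its change in MUT against WT was -0.30 ± 0.036 (edgeR adjusted p = 5.74e-06), and it differed between batches (adjusted p = 6.34e-06), with 0.04 in batch 1 and 0.15 in batch 3. With offsets for GC content and length, the change of PRCP between MUT and WT in batch 2 fell to 0.06 and lost its call.

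Among the autophagy genes in batch 2, the initiation complex and the membrane genes rose in both CEL media: all 3 of ULK1, ATG13 and RB1CC1 in each, and in the group of WIPI1, WIPI2, ATG2A and ATG9A all 4 in WT and 3 in MUT, where ATG2A stood at 0.06 ± 0.060. Over all genes in batch 2, 19.6% rose in WT and 24.1% rose in MUT against EV. With offsets for GC content and length, WIPI2 lost its call in WT (adjusted p = 0.114) and ATG2A gained one in MUT. WIPI1 had the largest change of the 50 genes in WT, from 6.11, 5.91 and 5.10 CPM in EV to 11.5, 10.8 and 9.61 CPM, with 7.37, 7.08 and 7.53 CPM in MUT. The groups did not overlap, and the change was 0.90 ± 0.094 in WT and 0.37 ± 0.095 in MUT (edgeR adjusted p = 7.68e-07 and 0.00403). In batch 1 WIPI1 lay between 2.08 and 2.98 CPM in all 11 libraries.

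**Figure D4:**
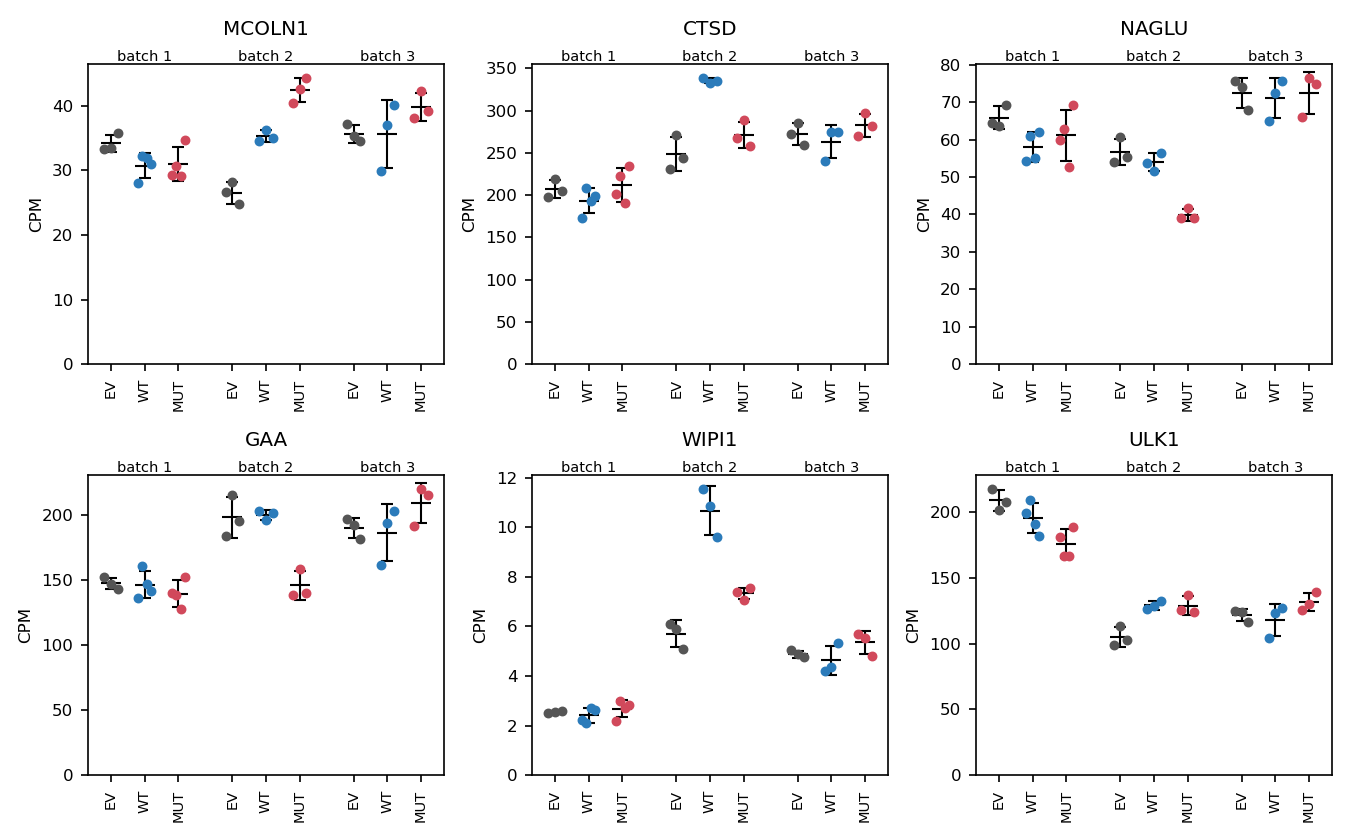
CPM by library, batch and medium for 6 genes: MCOLN1, CTSD, NAGLU, GAA, WIPI1 and ULK1. Points are libraries and bars the mean and SD; in batch 2 the MUT points of NAGLU (38.9 to 41.6 CPM) lie below all EV and WT points, and ULK1 lies between 167 and 218 CPM in batch 1 and between 98.9 and 139 CPM in batches 2 and 3.

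ULK1 turned its direction between batches. In batch 1 it stood at 218, 202 and 208 CPM in EV, 200, 209, 191 and 182 CPM in WT and 182, 167, 167 and 189 CPM in MUT, a change of -0.27 ± 0.059 in MUT against EV (edgeR adjusted p = 0.0462). In batch 2 it rose from 98.9, 113 and 103 CPM in EV to 126, 137 and 124 CPM in MUT, a change of 0.30 ± 0.052 (adjusted p = 0.000116), and the test of differing between batches gave 3.14e-05. Batch 1 alone called 3 of the 50 genes in MUT against EV, ULK1 and ATG2A downward and RB1CC1 upward, where 1.40% of all genes passed, 0.497% upward and 0.907% downward. These 3 calls were lost with offsets for GC content and length and in edgeR without robust estimation. Leaving out EV library 2 or 4, WT library 1, 3 or 4, or MUT library 2 or 3 of batch 1 also left 0 calls, and leaving out MUT library 4 gave 8. Shares of all genes are not given for these fits, so their counts do not set the 50 genes apart. ATG2A, the lipid transfer protein, fell from 135, 126 and 128 CPM to 115, 110, 106 and 120 CPM.

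The ATG8 proteins split in batch 2. In MUT against EV, MAP1LC3B and GABARAPL2 rose and MAP1LC3A and GABARAP fell, where 24.1% of all genes rose and 23.8% fell. MAP1LC3A, the second LC3 gene, stood at 79.0, 88.9 and 81.9 CPM in EV, 95.1, 88.8 and 96.4 CPM in WT and 68.1, 71.3 and 64.7 CPM in MUT. Its change was -0.45 ± 0.051 in MUT against WT (edgeR adjusted p = 3.37e-06), the smallest p of the 50 genes in that fit. SQSTM1 rose in WT, from 157, 168 and 162 CPM in EV to 190, 190 and 183 CPM, and stood at 158, 160 and 149 CPM in MUT. It changed by 0.21 ± 0.041 in WT (adjusted p = 0.000542) and by -0.06 ± 0.041 in MUT (adjusted p = 0.287).

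In the other fits of batches 1 and 3 alone, 0 of the 50 genes passed in edgeR. The shares of all genes were 0.277% for MUT against WT and 0.0143% for WT against EV in batch 1, and in batch 3 they were 0.0490% for MUT against EV (0.0441% upward and 0.00490% downward), 1.22% for MUT against WT (0.868% upward and 0.348% downward) and 0.00981% for WT against EV. At an unadjusted p under 0.05, MUT against WT had 11 of the 50 genes in batch 1 and 11 in batch 3, WT against EV had 13 in batch 1 and 0 in batch 3, and MUT against EV had 12 in batch 3. DESeq2 called 5, 3, 1, 0 and 1 in the same order. The shares of all genes at that cut-off and with DESeq2 are not given, so these counts do not set the 50 genes apart. Mitochondrially encoded genes differed between media in 2 of the batches, but not in the same medium. In batch 1 they took 7.08 to 8.28% of the counts in EV, 6.89 to 7.57% in WT and 5.77 to 6.46% in MUT. In batch 2 they took 4.80 to 5.25% in EV, 3.99 to 4.05% in WT and 4.89 to 5.41% in MUT. They were lowest in MUT in batch 1 and in WT in batch 2, while the other media overlapped. Their part in the changes above was not tested.

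Between batches, the lysosome genes stood higher in batches 2 and 3 than in batch 1. In batch 2 against batch 1, 17 of 27 lysosome genes were higher and 6 lower, and 14 of 23 autophagy genes were higher and 2 lower (edgeR, over all media), where 66.7% of all genes passed, 33.7% higher and 33.0% lower. In batch 3 against batch 1 the counts were 19 higher and 4 lower of the lysosome genes and 11 higher and 7 lower of the autophagy genes, where 56.6% of all genes passed, 29.9% higher and 26.7% lower. The median log2 difference of the lysosome genes was 0.300 and 0.273, that of the autophagy genes 0.212 and 0.050, and that of all genes -0.009 and 0.003. With offsets for GC content and length the autophagy median in batch 3 against batch 1 was 0.111. Both contrasts share the libraries of batch 1.

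WIPI1 had the largest difference, 1.62 in batch 2 and 0.98 in batch 3 against batch 1 on the log2 scale. PPT1, the palmitoyl-protein thioesterase, lay between 104.0 and 122.7 CPM in batch 1, between 168.6 and 198.2 CPM in batch 2 and between 158.2 and 181.5 CPM in batch 3, with differences of 0.65 and 0.55 from batch 1 and no overlap with it. GLB1 was higher by 0.48 and 0.62, and GABARAPL2 by 0.56 and 0.395. ULK1 was lower by -0.67 and -0.63, the opposite of most of the genes. ATG2A (-0.26 and -0.24) was lower in both, and ATG14, a subunit of the Beclin 1 complex, was lower in batch 3 (-0.23), but with offsets for GC content and length ATG2A stood at -0.04 in batch 3 and missed the threshold, and in EV libraries alone ATG14 stood at -0.11 and missed it.

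**Figure D5:**
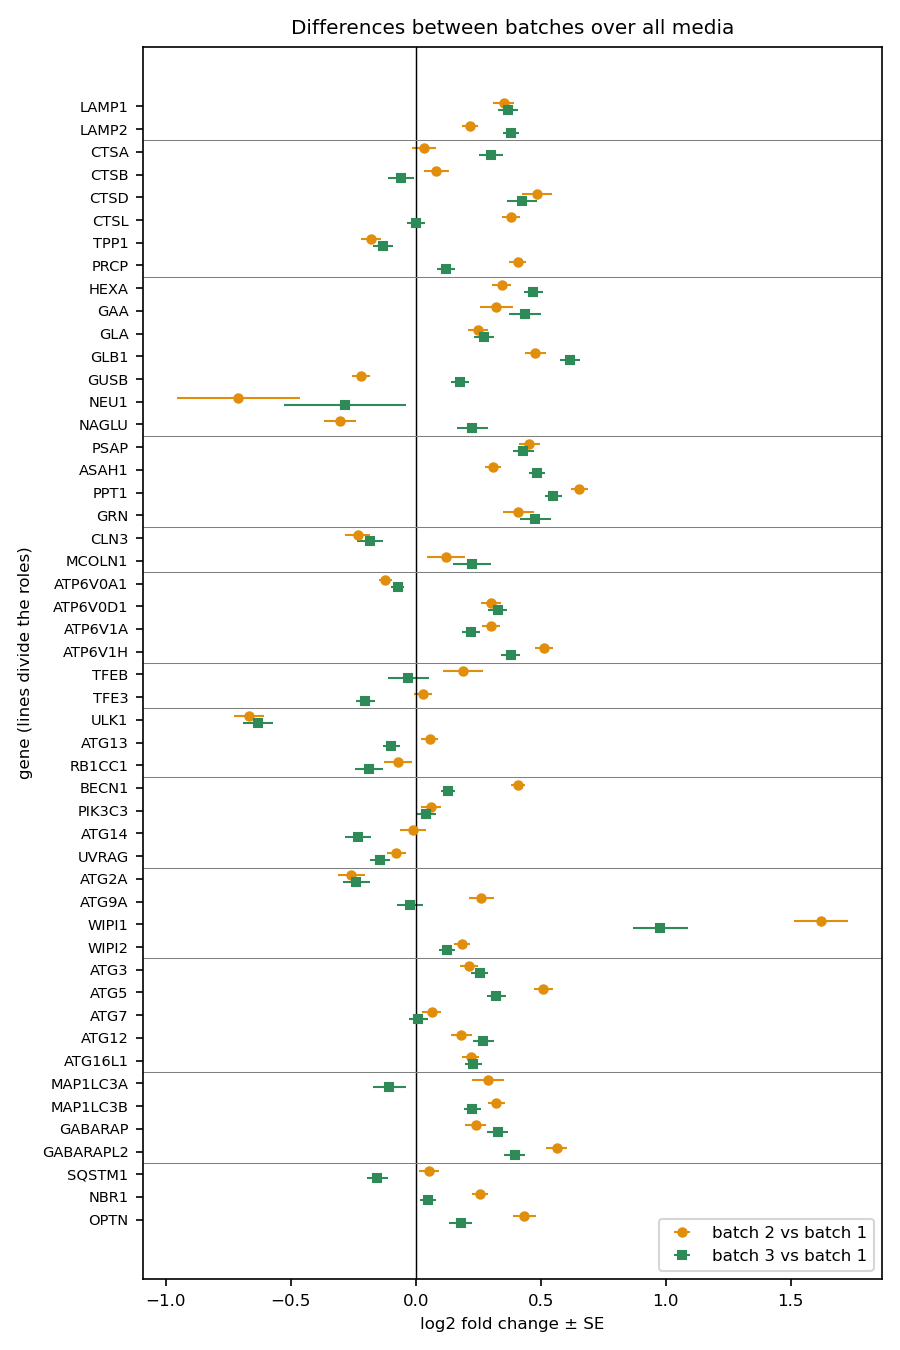
Log2 difference of each of the 50 genes in batch 2 against batch 1 (circles) and in batch 3 against batch 1 (squares) over all media, with SE as bars. WIPI1 lies farthest to the right, at 1.62 and 0.98, and ULK1 at -0.67 and -0.63.

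Batch 3 against batch 2, over all media, separated the classes: 0 of 23 autophagy genes were higher and 12 lower, while the lysosome genes split into 7 higher and 7 lower, where 44.5% of all genes passed, 22.2% higher and 22.3% lower. The gap depended on the medium. In batches 2 and 3 the mean summed autophagy level was 1858 and 1777 CPM in EV, 2032 and 1768 CPM in WT, and 1955 and 1828 CPM in MUT. NAGLU (0.53), GUSB (0.40) and CTSA (0.27) were the lysosome genes with the largest upward differences that passed. CTSL, the protease cathepsin L, went down by -0.38, from a range of 53.7 to 63.3 CPM in batch 2 to 41.9 to 47.9 CPM in batch 3. WIPI1 (-0.645) and MAP1LC3A (-0.395) led the autophagy genes downward, although WIPI1 stood at -0.22 in EV libraries alone and missed the threshold there. NEU1, lower by -0.71 in batch 2 than in batch 1, lost its call in EV libraries alone. In the summed profiles, 23 of the 50 genes passed in batch 3 against batch 1, where 24.0% of all genes did, and 6 in batch 3 against batch 2, where 8.57% did.

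Other genes of the same routes were counted by role. In MUT against EV over all batches, where 2.95% of all genes rose and 2.25% fell, 4 of 39 other lysosomal enzymes and membrane proteins rose and 1 fell. Among the genes so called over all batches were LAPTM4B (0.18 ± 0.048), a lysosomal membrane protein, which rose, and TPCN2 (-0.15 ± 0.044), a lysosomal ion channel, which fell. Without batch 2, an alternative chosen after seeing the data, 0 of the 141 genes of all these lists passed in MUT against EV. The same held for 0 of the 20934 genes tested there. The counts that follow are again over all batches. Of 15 other proton pump genes tested 1 rose, ATP6AP2 (0.15 ± 0.043), and of 11 genes that sort lysosomal enzymes 1 rose, SORT1 (0.16 ± 0.040), which encodes sortilin.

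None of the 18 other genes of the autophagy machinery passed in MUT against EV (edgeR). At an unadjusted p under 0.05 there were 8, a count without the share of all genes beside it. Of 14 genes of autophagosome fusion 2 fell, TECPR1 (-0.17 ± 0.044) and VAMP8 (-0.21 ± 0.065), the latter a SNARE protein of membrane fusion. Of 16 other receptors 3 rose: TAX1BP1 (0.16 ± 0.036), CALCOCO2 (0.11 ± 0.028) and the mitophagy kinase PINK1 (0.25 ± 0.067). Of 28 genes of mTORC1 and its lysosomal regulators 1 rose, RRAGA (0.12 ± 0.032), a Rag GTPase. In MUT against WT, where 0.884% of all genes passed, NPC2 (0.19 ± 0.036), a cholesterol carrier of the lysosome, rose and TECPR1 (-0.20 ± 0.043) fell. Without batch 2, 4 of the 141 genes passed in that comparison, where 1.46% of all genes did. TECPR1 (-0.15) was lower, and ATP6V1D (0.132), FUCA1 (0.143) and NRBF2 (0.155) were higher. NPC2 did not pass there (0.145, edgeR adjusted p = 0.069). In WT against EV over all batches, 0 of these genes passed. In batch 2 alone, 13 of the 18 other machinery genes rose and 2 fell in WT against EV, where 19.6% of all genes rose and 19.3% fell.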

How the data were processed

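Polyadenylated RNA was sequenced from 29 libraries of EndoC-βH1 cells (stranded mRNA kit, per the labels' protocols). The deposited values are estimated counts for each Ensembl gene. Tools named per the submitters' processing notes are fastp and kallisto. Versions, genome build and annotation were not given in the sources used here. Symbols came from GENCODE release 29, and 2.69% of the counts lay in entries without a symbol. Estimated counts were rounded and genes filtered with filterByExpr, which kept 21259. Scaling was by TMM, and the tests were edgeR 4.0.16 quasi-likelihood fits (robust, R 4.3.3) with batch and medium (24 residual degrees of freedom), with their interaction (20), and for batches 1, 2 and 3 alone (8, 6 and 6). P-values were adjusted by Benjamini-Hochberg over all genes tested, with a threshold of 0.05. CPM values are TMM-scaled except in the rule for the members and for the cell type markers, INS, CEL and MAP1LC3B2, which were scaled to total counts only. The script was tested on simulated data.

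The members and lists were chosen with earlier results of these data known. Values by library are given for genes that passed a pooled test, those with the largest change of each class, those with the smallest p in a batch alone, TFEB, TFE3, SQSTM1, MAP1LC3B, LAMP1 and CTSD, and the 3 largest in each batch contrast and direction. GAA and HEXA were added after their values were seen. Alternatives were DESeq2 1.42.0, limma 3.58.1 (voom), other scalings and filters, offsets for GC content and length, summed profiles, other covariates, and leaving out libraries or batches. The counts of ATG16L1 are repeated by another entry of the table, and reads shared between near-identical genes cannot be told apart.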

Additional observations from a re-analysis of the deposited data

Results flagged for a closer look

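Among 135 groups of 4 to 10 libraries, 5 held a library apart from the others by Dixon's test, and chance flags about 1 group in 20. ATG13 stood at 98.66 CPM in EV library 3 of batch 1, the highest of the EV libraries. GUSB stood at 239.7 CPM in MUT library 4 of batch 1, and PSAP at 759.6 CPM in WT library 1 of batch 1. RB1CC1 stood at 48.66 CPM in WT library 2 of batch 1. NEU1 stood at 19.54 CPM in MUT library 2 of batch 1, the highest of the MUT libraries.

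Of 37 changes between media tested for differing between the 3 batches, 21 passed (edgeR interaction term, adjusted over all genes). For MUT against EV the adjusted p was 1.08e-06 for MCOLN1, 3.14e-05 for ULK1, 5.93e-05 for RB1CC1, 0.000817 for NAGLU, 0.00183 for TFE3, 0.0192 for WIPI2 and 0.0321 for TFEB. The largest change lay in batch 2 for MCOLN1, ULK1, RB1CC1, NAGLU, TFE3 and WIPI2, and in batch 1 for TFEB.

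For MUT against WT the adjusted p was 6.34e-06 for CTSA, 0.000177 for MAP1LC3A, 0.00157 for CTSD, 0.00184 for SQSTM1, 0.0234 for LAMP1 and 0.04997 for TFEB. CTSA, MAP1LC3A, CTSD and SQSTM1 passed in batch 2 alone, each lower in MUT. LAMP1 and TFEB passed in no batch alone.

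For WT against EV the adjusted p was 8.23e-06 for WIPI1, 9.10e-06 for PSAP, 0.000114 for TFE3, 0.000192 for CTSD, 0.000876 for LAMP1, 0.0115 for SQSTM1, 0.0121 for TFEB and 0.0472 for MAP1LC3B. All 8 passed in batch 2 alone, each higher in WT, and none passed in batch 1 or batch 3 alone.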

How the results depend on the processing

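The 5 genes called in MUT against EV became 1 with no low-count filter, 9 with offsets for GC content and length, and 0 with voom quality weights, summed profiles, no batch term, only the 2 groups compared or voom with correlated libraries (correlation 0.431). They became 3, 0 and 12 without batches 1, 2 and 3, and 0 to 6 when 1 library was left out. The 1 gene called in MUT against WT became 2 with DESeq2 or voom quality weights, 5 with the offsets, and 0 with no filter, summed profiles, no batch term or correlated libraries. It became 0, 2 and 4 without batches 1, 2 and 3, and 0 to 1 without 1 library. The offsets also raised the share of all genes that passed, from 5.20 to 11.2% in MUT against EV and from 0.884 to 4.20% in MUT against WT. WT against EV went from 0 to 1 without batch 3. With the replicate block, 0 genes were called in MUT against EV, 0 in MUT against WT and 0 in MUT against EV of batch 1. The labels do not say that same-numbered libraries are pairs. Across 28 pairs the correlation of same-numbered libraries ran from -0.0577 to 0.0889. Each library was also set against those of the other media in its batch, and 16 of 29 correlated best with their own number. That count was not compared with the one expected without pairing, so whether the numbers mark pairs was not tested.

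In batch 1 alone, the 3 genes of MUT against EV became 6 with DESeq2, 9 with voom quality weights, 0 with the offsets or without robust estimation, and 0 to 8 without 1 library. The 0 of MUT against WT became 5 with DESeq2 or the offsets, 1 with total library size or no filter, and 0 to 4 without 1 library (4 without MUT library 4). The 0 of WT against EV became 1 with DESeq2 or the offsets. With the offsets in batch 1, 3.77% of all genes passed in MUT against WT and 0.291% in WT against EV. In batch 3 alone, the 0 of MUT against EV became 1 with DESeq2 or no filter, 3 with voom quality weights, and 0 to 6 without 1 library (6 without WT library 1). The 0 of MUT against WT became 3 with DESeq2 or no filter, 1 with voom quality weights, 2 with the offsets, and 0 to 5 without 1 library (5 without WT library 3). With the offsets, 1.31% of all genes passed in that comparison. With summed profiles, 41 genes became 23 in batch 3 against batch 1, and 26 became 6 in batch 3 against batch 2. The cause was not tested in any of these. The other counts, among them those of batch 2 alone, of batch 2 against batch 1 and of differing change, stayed within 1.5 times under each alternative run. For single genes, 2188 values kept their direction and side of the threshold, 115 lost the call, 17 gained it and 47 turned their sign. None of the 47 was a call in either fit.

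The values that turned sign without batch 2 were, in MUT against EV, MCOLN1 at -0.006, ULK1 at -0.089 and TFEB at -0.044. In MUT against WT they were MAP1LC3A at 0.067, CTSA at 0.095, SQSTM1 at 0.036 and CTSD at 0.117, and in WT against EV WIPI1 at -0.073, PSAP at -0.028, TFE3 at -0.053, SQSTM1 at -0.045, LAMP1 at -0.082 and CTSD at -0.078. Without batch 3, TFEB stood at -0.090 against EV and -0.061 against WT in MUT, and TFE3 at -0.016 in MUT against WT. Without batch 1, TFEB stood at 0.107 in WT against EV. Voom quality weights turned ULK1 (-0.031) and TFEB (-0.026) in MUT against EV and LAMP1 (-0.012) in WT against EV. The offsets turned SQSTM1 in MUT against EV (0.015), and CTSA (0.023) and CTSD (0.042) in MUT against WT. TFEB in MUT against EV stood at -0.007 with total library size, -0.001 with no batch term and -0.003 with only the 2 groups compared. Without 1 library, TFEB ran from -0.035 to 0.044 in MUT against EV and from -0.073 to 0.000 in WT against EV, CTSD from -0.047 to 0.011 in MUT against WT and LAMP1 from -0.000 to 0.048 in WT against EV.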
